A study of Saccharomyces cerevisiae with 8 samples.

Results

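The genes described here lie near the chromosome ends of budding yeast (Saccharomyces cerevisiae): AIF1 (YNR074C), YIL175W, YIR042C, YPS6 (YIR039C), RDS1 (YCR106W), YEL073C, YHR214W and YAR068W. They are 8 of the 6267 open reading frames on the arrays, and all 8 were among the 4554 with enough values to be tested. They were chosen by a measured value: their mean in cells labelled as lacking both SET2 and SIR4 (set2Δsir4Δ) lay well above their mean in cells lacking SET2 (set2Δ). That difference chose the genes, so its values are a description and carry no test. The set2Δsir4Δ and the set2Δ strain were each hybridised on 4 arrays against wild-type RNA in the other dye, so both groups share the absence of SET2 and a wild-type channel. The mutant carried Cy3 on arrays 1 and 4 of the set2Δsir4Δ group and on arrays 1 and 2 of the set2Δ group, and Cy5 on the other arrays. All strains were in log phase in the rich medium YPAD. The strain background, the mating type and the form of the deletions are not given in the sources used here. A sir4Δ strain with SET2 intact was not analysed here, so what SIR4 does in the presence of Set2 cannot be read from these values.

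Genes close to yeast telomeres lie in or beside chromatin that can be silenced. Rap1 and the Ku proteins recruit the Sir complex to the chromosome end, where Sir4 is its scaffold, Sir2 removes acetyl groups from histones and Sir3 binds the deacetylated tails. The same complex keeps the silent mating cassettes off. Set2 methylates lysine 36 of histone H3 behind elongating RNA polymerase II, a mark of transcribed genes read by the Rpd3S histone deacetylase, and loss of Set2 has been tied to spreading of Sir proteins into genes near the ends.

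Every value below is a log2 ratio of mutant over wild type for the same spot on the same array, so 0 is the wild-type level and 1 is a doubling. It tells nothing of how abundant one transcript is beside another. Means are given with the standard error (SE) of a linear model with a mean per group and a term for dye, and n is 4 arrays unless another n is given. Nothing in the labels tells separate cultures from repeated hybridisations, so the p-values cover only array-to-array spread, which may be technical. In RNA from whole cultures, a gene silenced in more cells and less RNA in every cell cannot be told apart. The arrays held 4846 to 5577 values in the set2Δsir4Δ group and 4613 to 4926 in the set2Δ group, with medians between -0.09 and 0.05, and their number limits the precision. Across all genes, arrays of opposite dye correlated at 0.704 to 0.822 in the set2Δsir4Δ group and at -0.087 to 0.309 in the set2Δ group, so the set2Δ arrays agreed less between dyes. The SET2 spot read -1.64, -1.72, -1.94 and -1.48 on the set2Δsir4Δ arrays, and -3.24 and -2.61 on the only set2Δ arrays with a value. The SIR4 spot read 0.04, -0.17, -0.21 and 0.05 on the arrays labelled set2Δsir4Δ and had no value on the set2Δ arrays, so it does not bear out the SIR4 deletion. This spot could check the deletion only if it lay within the deleted stretch, and no source used here places it in the gene. Below, set2Δsir4Δ is the label that these arrays carry.

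Over the 8 genes, the median log2 ratio was 1.05 on the set2Δsir4Δ arrays and -0.50 on the set2Δ arrays, where the medians of all genes tested were -0.03 and -0.01. The median difference was 1.55, against -0.01 over all genes. No gene of the 8 had overlapping arrays between the groups, and 3.71% of all genes tested had the set2Δsir4Δ arrays higher without overlap. At an adjusted p under 0.05 in limma, 38 of 4554 genes (0.834%) were higher on the set2Δsir4Δ arrays than on the set2Δ arrays and 74 (1.62%) lower. The rule used this contrast, so nothing is read from the 8 genes against these shares.

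**Figure D1:**
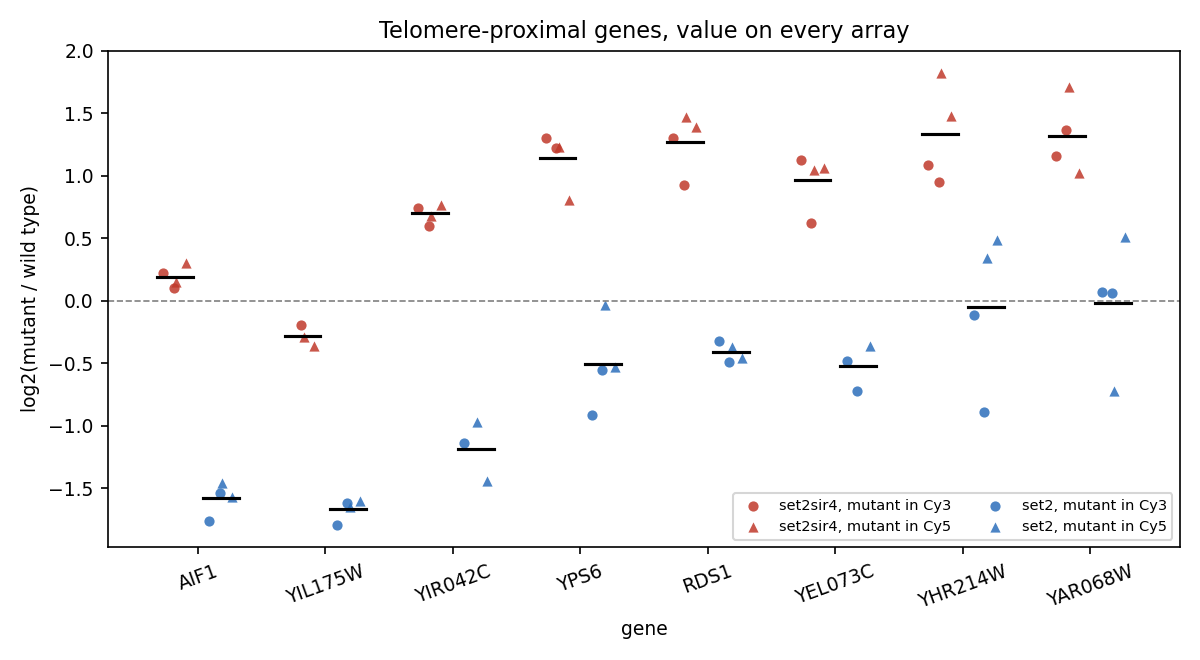
The vertical axis is the log2 ratio of mutant over wild type, and the horizontal axis the 8 genes. Red symbols are set2Δsir4Δ arrays and blue symbols set2Δ arrays, circles have the mutant in Cy3, triangles have it in Cy5, and black bars are group means. The red symbols of each gene lie above its blue ones, from AIF1 and YIL175W with low blue values to YHR214W and YAR068W with blue values around 0.

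The 8 genes differed in where this gap lay relative to wild type. AIF1 and YIL175W were far below wild type in set2Δ and near it in set2Δsir4Δ, so the gap lay below the wild-type level. AIF1 encodes a mitochondrial effector of cell death related to the apoptosis-inducing factor of mammals. It read 0.22, 0.15, 0.30 and 0.10 on set2Δsir4Δ arrays 1 to 4, against -1.76, -1.54, -1.46 and -1.57 on set2Δ arrays 1 to 4. All set2Δsir4Δ arrays were slightly above wild type, and all set2Δ arrays were far below it. The means were 0.19 ± 0.08 in set2Δsir4Δ and -1.58 ± 0.08 in set2Δ, 2.99-fold below wild type, and the difference was 1.77 ± 0.12, or 3.42-fold.

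YIL175W is annotated as a pseudogene. Its values were -0.29, -0.36 and -0.19 on set2Δsir4Δ arrays 2 to 4, with none on array 1, against -1.79, -1.62, -1.65 and -1.60 on the set2Δ arrays. Both groups were below wild type on each array with a value, and the set2Δ arrays were the lower ones. The means were -0.28 ± 0.10 (n = 3) in set2Δsir4Δ and -1.67 ± 0.08 in set2Δ, a difference of 1.39 ± 0.13 or 2.62-fold.

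A further 4 genes were below wild type in set2Δ and above it in set2Δsir4Δ, on opposite sides of the wild-type level. YIR042C, a gene of unknown function, had the widest gap of the 8. Its ratios were 0.74, 0.68, 0.77 and 0.60 on the set2Δsir4Δ arrays, against -1.14, -0.97 and -1.44 on set2Δ arrays 1, 3 and 4. Its set2Δsir4Δ arrays lay close together, with an SD of 0.073, the smallest of any of the 8 genes in that group. The means were 0.70 ± 0.10 in set2Δsir4Δ, 1.62-fold above wild type, and -1.19 ± 0.12 (n = 3) in set2Δ, 2.27-fold below it, and the difference was 1.88 ± 0.15 or 3.69-fold.

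YPS6 encodes a yapsin, an aspartic protease held at the cell surface by a glycolipid anchor. On the set2Δsir4Δ arrays it read 1.30, 1.23, 0.81 and 1.22, against -0.91, -0.55, -0.03 and -0.53 on the set2Δ arrays. Array 3 was the nearest to wild type in both groups. The means were 1.14 ± 0.13 in set2Δsir4Δ, 2.21-fold above wild type, and -0.51 ± 0.13 in set2Δ, a difference of 1.65 ± 0.19.

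RDS1 encodes a zinc cluster transcription factor tied to drug sensitivity. It stood at 1.30, 1.47, 1.39 and 0.93 on the set2Δsir4Δ arrays, against -0.32, -0.49, -0.37 and -0.46 on the set2Δ arrays. The set2Δ arrays differed little among themselves (SD 0.075), and the fourth set2Δsir4Δ array was lower than the rest of its group. The means were 1.27 ± 0.09 in set2Δsir4Δ and -0.41 ± 0.09 in set2Δ, and the difference was 1.68 ± 0.13 or 3.21-fold.

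YEL073C is an uncharacterised reading frame. It gave 1.13, 1.05, 1.06 and 0.62 on the set2Δsir4Δ arrays, against -0.48, -0.72 and -0.36 on set2Δ arrays 1, 2 and 4. As for RDS1, the fourth set2Δsir4Δ array was the lowest of its group, and it still lay above wild type. The means were 0.97 ± 0.10 in set2Δsir4Δ, 1.95-fold above wild type, and -0.49 ± 0.12 (n = 3) in set2Δ, a difference of 1.45 ± 0.16 or 2.74-fold. For AIF1, YIR042C, YPS6, RDS1 and YEL073C, all set2Δsir4Δ values were above 0 and all set2Δ values below 0, a pattern that 22 of 4554 genes (0.483%) had.

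YHR214W and YAR068W were near wild type on average in set2Δ and above it in set2Δsir4Δ, so their gap lay above the wild-type level. YHR214W, predicted to be a glycolipid-anchored cell surface protein, read 1.09, 1.82, 1.48 and 0.95 on the set2Δsir4Δ arrays, against -0.11, -0.89, 0.34 and 0.49 on the set2Δ arrays. In both groups the arrays with the mutant in Cy5 were higher than those with it in Cy3. The means were 1.34 ± 0.13 in set2Δsir4Δ, 2.53-fold above wild type, and -0.05 ± 0.13 in set2Δ, a difference of 1.38 ± 0.18.

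YAR068W, whose function is unknown, read 1.16, 1.71, 1.02 and 1.37 on the set2Δsir4Δ arrays, against 0.07, 0.06, -0.72 and 0.51 on the set2Δ arrays. The set2Δ arrays were spread on both sides of wild type, with no set2Δsir4Δ array below 1. The means were 1.32 ± 0.17 in set2Δsir4Δ, 2.49-fold above wild type, and -0.02 ± 0.17 in set2Δ, and the difference was 1.34 ± 0.25 or 2.52-fold. It was 1.06 without set2Δ array 3, and that of YHR214W was 1.20 without set2Δ array 2.

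**Figure D2:**
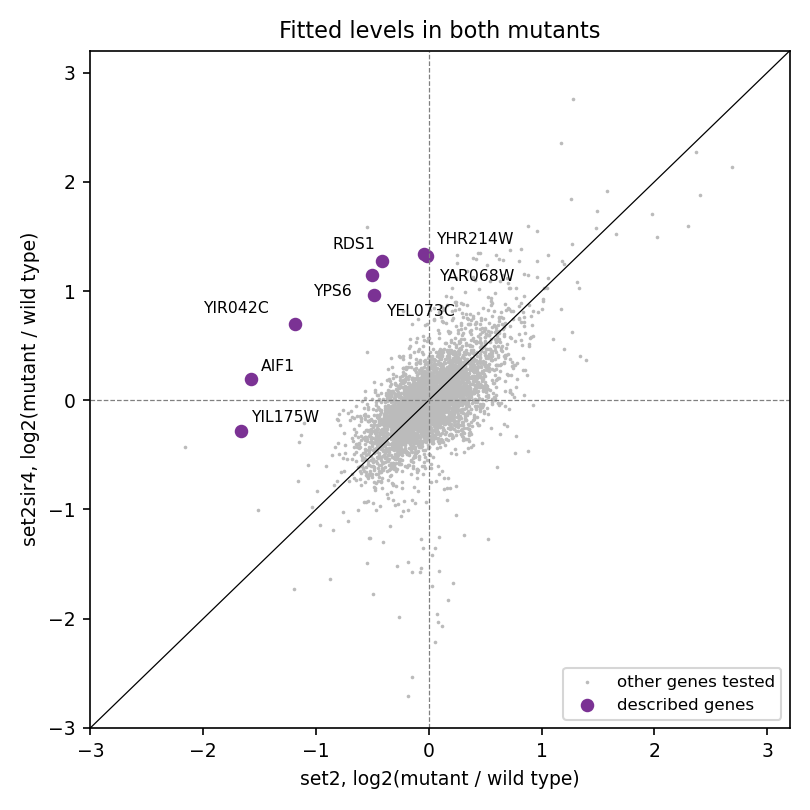
Each point is a gene tested, with its fitted log2 ratio of mutant over wild type in set2Δ on the horizontal axis and in set2Δsir4Δ on the vertical axis. The solid line marks equal ratios, dashed lines mark the wild-type level, purple points are the 8 genes, and 8 other genes below the plotted range are not shown. The 8 genes lie above the line, with AIF1 and YIL175W to the far left and YHR214W and YAR068W above the wild-type mark of the horizontal axis.

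Against wild type, 6 of the 8 genes were higher in set2Δsir4Δ at an adjusted p under 0.05 in limma and 0 lower, where 11.0% of all genes were higher and 14.1% lower. At an unadjusted p under 0.05, 7 were higher and 1, YIL175W, was lower, where 16.2% of all genes were higher and 21.0% lower. In set2Δ, 6 of the 8 were lower and 0 higher, where 13.0% of all genes were lower and 11.8% higher. At an unadjusted p under 0.05 these counts were the same, where 21.3% of all genes were lower and 18.4% higher. Without set2Δ array 4 the count of lower genes was 3. Both counts follow in part from the choice of the genes, and nothing more is read from them.

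For the 5 genes with a value on all 8 arrays, the mean of both mutants against wild type is uncorrelated with the difference. That holds only where both groups have the same spread, as the model assumes. The SDs were 0.237 in set2Δsir4Δ and 0.075 in set2Δ for RDS1, and 0.392 and 0.62 for YHR214W. Both contrasts also use 1 estimate of spread per gene, so their p-values are not free of the choice. The mean averages mutants that, for most of these genes, lie on opposite sides of wild type. Its sign is therefore that of the average and not of each mutant. The average lay below wild type for AIF1 (-0.69 ± 0.06, adjusted p = 1.66e-05 in limma) and above it for YPS6, RDS1, YHR214W and YAR068W. It was 0.32 ± 0.09 for YPS6 (adjusted p = 0.0216 in limma), 0.43 ± 0.07 for RDS1 (0.000593), 0.65 ± 0.09 for YHR214W (0.000298) and 0.65 ± 0.12 for YAR068W (0.00212). In the same test it lay below wild type for YIL175W at -0.97 ± 0.07 (adjusted p = 9.46e-06 in limma) and YIR042C at -0.24 ± 0.08 (0.0288) and above it for YEL073C at 0.24 ± 0.08 (0.0363), but with an array missing the mean of these genes is not independent of the choice. Over all 8 genes that makes 5 higher and 3 lower, where 17.6% of all genes were higher and 22.8% lower. As this count includes YIL175W, YIR042C and YEL073C, nothing is read from it against these shares. The calls of YIR042C, YPS6 and YEL073C depended on single arrays. Without set2Δsir4Δ array 1 or array 2, none of them passed and the count was 5. Over all alternatives the adjusted p in limma ran from 0.00543 to 0.211 for YIR042C, from 0.00179 to 0.072 for YPS6 and from 0.00351 to 0.305 for YEL073C. That of YHR214W depended on dye orientation, with an average of 0.26 on the Cy3 arrays alone (adjusted p = 0.124 in limma) and of 1.03 on the Cy5 arrays alone (1.05e-05), the ends of its range over the alternatives. Under quantile normalization the average of YIL175W was -1.80 and that of YIR042C -0.38.

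Dye orientation is the technical batch that the labels give. Neither group lies within 1 orientation, so the gap could be read within each. It was 1.20 to 1.99 over the 8 genes on the arrays with the mutant in Cy3 and 1.24 to 1.93 on those with it in Cy5. AIF1, for example, averaged 0.16 in set2Δsir4Δ and -1.65 in set2Δ in Cy3, and 0.22 in set2Δsir4Δ and -1.51 in set2Δ in Cy5. YPS6 had the largest shift between orientations, with a gap of 1.99 in Cy3 and 1.31 in Cy5. No gene of the 8 passed the test of the dye term in limma, where 0.637% of all genes did. At an unadjusted p under 0.05, which 28.2% of all genes met, there was 1, YHR214W, which was higher with the mutant in Cy5 by 0.77 ± 0.18 (adjusted p = 0.0529 in limma). Whether the dye term itself differed between the groups gave adjusted p from 0.178 to 0.922 in limma.

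The 8 genes lay on 7 chromosome ends, within the 9 outermost protein-coding genes of each in the RefSeq annotation of the S288C assembly R64. YIR042C was the outermost protein-coding gene of the right end of chromosome IX, and YPS6 the 3rd of the same end. YAR068W was the 2nd gene of I right, RDS1 the 3rd of III right, AIF1 the 5th of XIV right, YEL073C the 5th of V left and YHR214W the 9th of VIII right. YIL175W lay between the 2nd and the 3rd protein-coding gene of IX left. Distances in bases are not given, since no build is named for the array design.

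All genes within 5 protein-coding genes of these 8 on either side, 60 in number, were looked at whatever their values. Of these, 39 were tested, 12 had no value on any array and 9 had too few. In the difference between the mutants, 2 of 39 passed in limma as higher and 0 as lower, and 16 were higher and 4 lower at an unadjusted p under 0.05. Of all genes, 0.834% passed as higher and 1.62% as lower, and 6.85% were higher and 7.66% lower at the unadjusted limit. The median difference of the neighbours was 0.20, with 30 above 0 and 9 below. The count of 2 was 5 without set2Δ array 3, and 1 without set2Δsir4Δ array 1 or array 4.

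**Figure D3:**
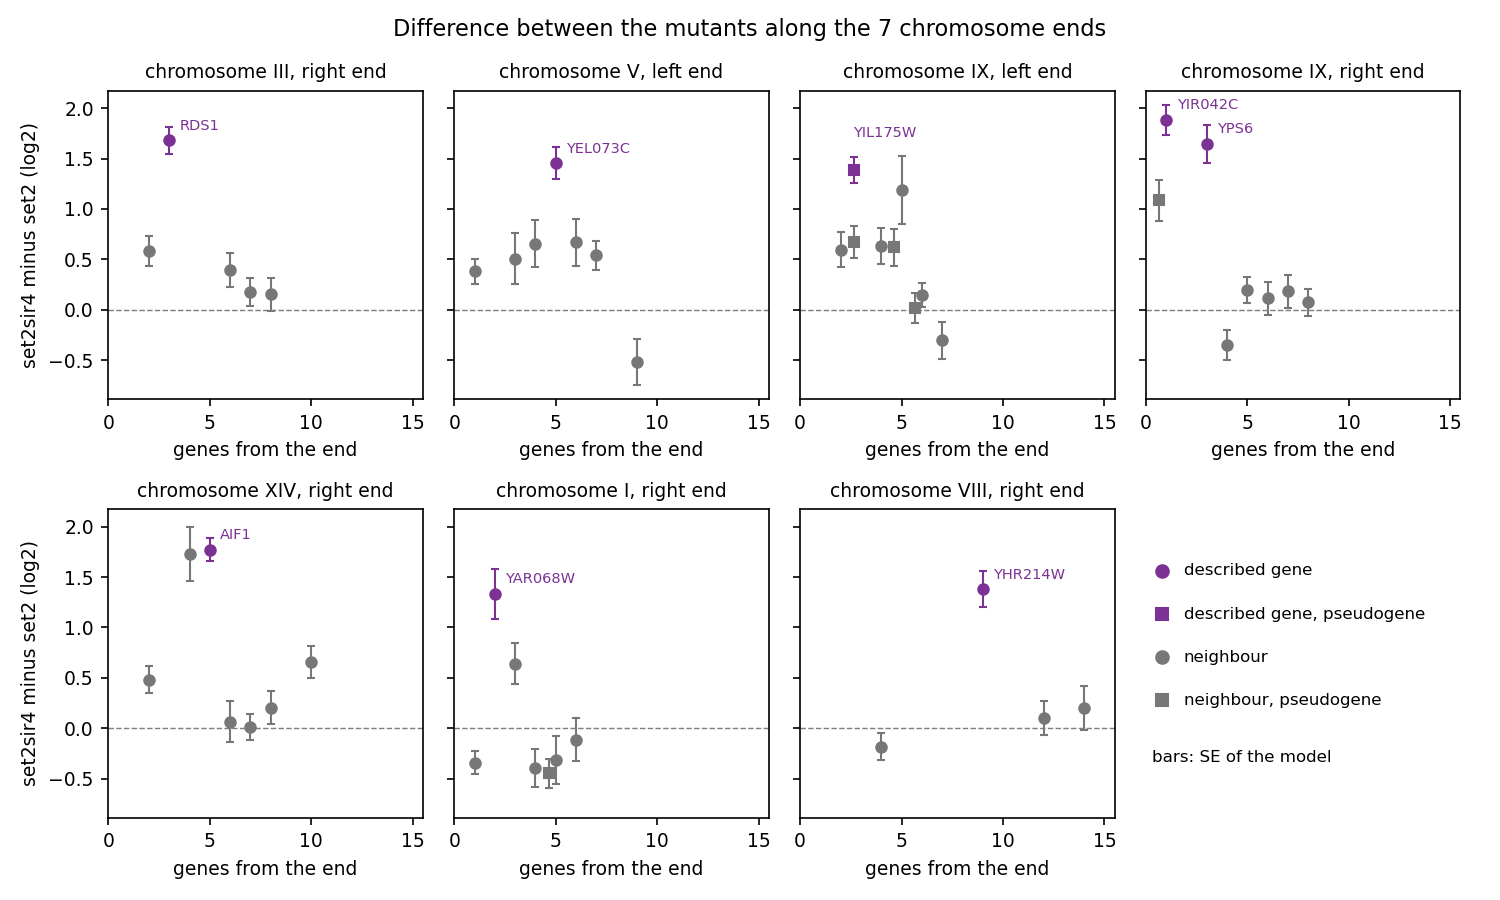
Each panel is 1 chromosome end, with the place of a gene counted in protein-coding genes from the end on the horizontal axis and the fitted set2Δsir4Δ minus set2Δ difference (log2) on the vertical axis. Purple symbols are the 8 genes, grey symbols their tested neighbours, squares are pseudogenes and bars are the SE of the model. COS10 beside AIF1 and the outermost grey square of IX right, YIR043C, stand near the purple symbols. So does CSS1 of IX left, a neighbour of YIL175W at 1.19 that did not pass. Most other neighbours lie between -0.5 and 0.7.

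On XIV right, COS10, next to AIF1, was higher in set2Δsir4Δ than in set2Δ. It is a membrane protein of the COS family, a set of closely related genes at many chromosome ends whose spots can share signal. It read -0.37, -0.52, -0.54 and -0.29 on the set2Δsir4Δ arrays, against -2.93, -1.51 and -1.85 on set2Δ arrays 1, 3 and 4. Like AIF1 it was well below wild type in set2Δ, but it remained below it in set2Δsir4Δ. Its gap between the mutants was 2.60 in Cy3, where set2Δ had a value only on array 1, and 1.15 in Cy5. The difference was 1.73 ± 0.27 or 3.31-fold (adjusted p = 0.00747 in limma, with a range of 8.1e-06 to 0.0833 over the alternatives). On the inner side of AIF1, the mannitol dehydrogenase gene MAN2 and the hexose transporter gene HXT17 were low in both mutants. MAN2 averaged -0.77 in set2Δsir4Δ and -0.84 in set2Δ, with a difference of 0.07 ± 0.20 (adjusted p = 0.896 in limma). HXT17 averaged -0.68 in set2Δsir4Δ and -0.69 in set2Δ, with a difference of 0.01 ± 0.13 (adjusted p = 0.981 in limma). The outermost gene of this end, YNR077C, had values only on the set2Δsir4Δ arrays, where it read 2.08, 2.02, 1.11 and 1.19, and it was named after its values were seen.

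On IX right, the pseudogene YIR043C beyond YIR042C was also higher in set2Δsir4Δ than in set2Δ. It read 1.42, 1.33, 1.26 and 1.32 on the set2Δsir4Δ arrays, against -0.41, -0.05, 0.82 and 0.64 on the set2Δ arrays. The set2Δ values split by dye, with both arrays in Cy3 below wild type and both in Cy5 above it. The difference was 1.08 ± 0.20 or 2.12-fold (adjusted p = 0.0169 in limma). The call was lost without set2Δ array 2 (adjusted p = 0.0556 in limma), without set2Δsir4Δ array 1 (0.0737) or array 4 (0.0684), on the Cy5 arrays alone (0.103) and with no dye term (0.0613), and with the array number as a block, within a range of 0.000149 to 0.103 over the alternatives. PAU15, between YIR042C and YPS6, had no value. On the inner side of YPS6 the glutathione transferase gene GTT1 had a difference of -0.35 ± 0.15 (adjusted p = 0.302 in limma).

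The nearest tested genes on the other ends did not pass in the main fit. On III right, AAD3, a putative aryl-alcohol dehydrogenase outside RDS1, had a difference of 0.58 ± 0.15 (adjusted p = 0.0877 in limma), and YCR102C inside it had 0.39 ± 0.17 (0.328). The alcohol dehydrogenase gene ADH7, directly inside RDS1, read -1.77, -1.47, -1.64 and -1.74 on the set2Δ arrays and its cells were empty for the set2Δsir4Δ arrays. It too was named after its values were seen, and its difference could not be computed. On IX left, the seripauperin gene PAU14 and the pseudogene YIL174W on both sides of YIL175W had differences of 0.60 ± 0.17 (adjusted p = 0.132 in limma) and 0.67 ± 0.16 (0.0603). On V left, YEL075C and RMD6 beside YEL073C had 0.66 ± 0.23 (adjusted p = 0.211 in limma) and 0.67 ± 0.24 (0.209). Dye orientation mattered for YEL075C, which was higher with the mutant in Cy5 by 1.27 ± 0.23 (adjusted p = 0.0434 in limma). The PAU14 gap was 1.04 in Cy3 and 0.16 in Cy5. Of 20 alternatives, AAD3 passed in 6 (adjusted p from 0.0178 to 0.28 in limma) and YIL174W in 5 (0.00746 to 0.406). PAU14 passed in 2 (0.00637 to 0.702), and YCR102C, YEL075C and RMD6 passed in 0.

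YHR214W on VIII right and YAR068W on I right belong to a stretch that is duplicated between these ends. YHR214W has a near copy, YAR066W, which lies beside YAR068W, and the acid phosphatase genes PHO12 and PHO11 flank them, so spots of either copy can share signal and their values are uncertain as to which copy they reflect. YAR066W read 0.65, 0.56, 0.62 and 0.51 on the set2Δsir4Δ arrays, against -0.08, -0.85, 0.31 and 0.40 on the set2Δ arrays. On the set2Δ arrays YHR214W followed its copy closely, with a gap between both log ratios of -0.05 to 0.09. On the set2Δsir4Δ arrays YHR214W stood above YAR066W by 0.44 to 1.26. The YAR066W difference between the mutants was 0.64 ± 0.20 and did not pass (adjusted p = 0.165 in limma). Over the alternatives its adjusted p in limma ran from 0.0305 to 0.518. YHR214W and YAR068W, which are not copies of each other, differed from array to array by -0.42 to 0.46 in set2Δsir4Δ and by -0.95 to 1.05 in set2Δ.

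The phosphatase genes next to them were low in both mutants. PHO12 averaged -1.15 ± 0.09 in set2Δsir4Δ and -0.97 ± 0.09 in set2Δ, with a difference of -0.18 ± 0.13 (adjusted p = 0.556 in limma). PHO11 averaged -1.19 ± 0.08 in set2Δsir4Δ and -0.85 ± 0.08 in set2Δ, with a difference of -0.34 ± 0.12 (adjusted p = 0.199 in limma). Both copies followed each other, with PHO12 minus PHO11 between -0.15 and 0.15 on the set2Δsir4Δ arrays and between -0.27 and 0.06 on the set2Δ arrays. On the inner side of YHR214W, the nearest tested gene, YHR213W, had a difference of 0.10 ± 0.17 (adjusted p = 0.815 in limma).

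**Figure D4:**
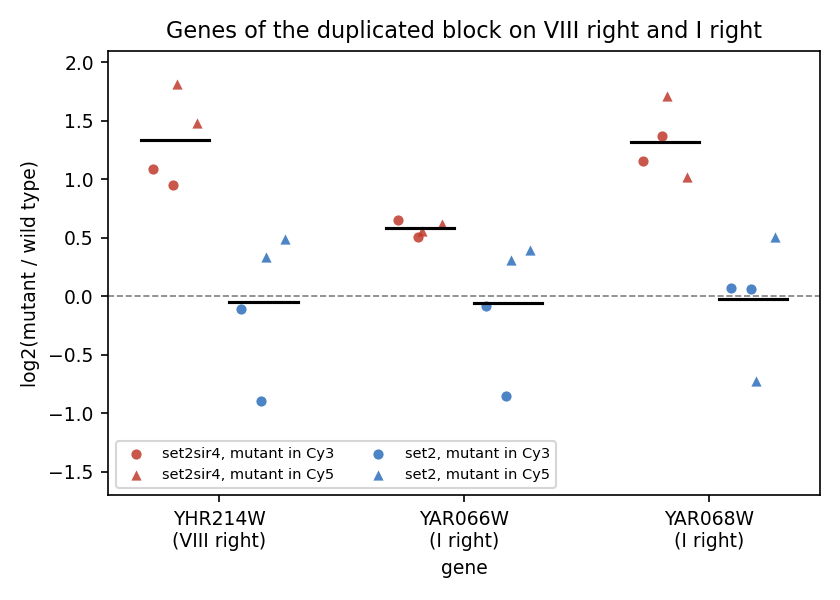
The vertical axis is the log2 ratio of mutant over wild type for YHR214W, its near copy YAR066W, and YAR068W, with red set2Δsir4Δ arrays left of blue set2Δ arrays. Circles have the mutant in Cy3, triangles in Cy5, and black bars are group means. The blue symbols of YHR214W and YAR066W sit at nearly the same heights, and the red symbols of YHR214W stand above those of YAR066W.

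Ranked by the difference over all genes tested, the 8 genes took 8 of the highest 11 places. The remaining places went to GIT1, a glycerophosphoinositol permease, COS10, and HPF1, a cell wall glycoprotein. GIT1, the 10th gene of III right and next to the silent cassette gene HMRA1, had the highest difference of all, with 1.84, 1.35, 1.49 and 1.69 on the set2Δsir4Δ arrays, against -0.72, -0.51 and -0.48 on set2Δ arrays 1, 3 and 4 (2.14 ± 0.16, adjusted p = 4.98e-05 in limma). HPF1, the 15th gene of XV left, read 2.33, 3.45, 2.36 and 2.88 on the set2Δsir4Δ arrays, against 0.91, -0.24, 2.22 and 2.22 on the set2Δ arrays, and its difference of 1.48 ± 0.37 did not pass (adjusted p = 0.0723 in limma). The rule names no limit. YAR068W at 1.34 was the lowest of the 8 genes, and next below it in rank stood CSS1 of IX left, another cell wall protein, at 1.19 ± 0.34, whose arrays overlapped (1.98, 3.02, 2.59 and 1.84 in set2Δsir4Δ, against 2.05, 0.59, 0.64 and 1.41 in set2Δ). YIR043C followed, at the 1.08 given above, and then YBL111C of II left at 1.05 ± 0.23 (adjusted p = 0.0502 in limma). All of the highest 20 differences, and 26 of the highest 30, lay within the 15 outermost genes of an end, where 335 of the 4554 genes tested (7.4%) lie. This stands with the 8 genes in the ranking, which the rule had placed there.

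Without the 8 genes, 321 genes of the 15 outermost of each end were tested, and in limma 20 passed as higher and 11 as lower on the set2Δsir4Δ arrays than on the set2Δ arrays. That is 6.2% and 3.4% of them, against 0.834% and 1.62% of all genes. The total of 31 was 15 without set2Δsir4Δ array 1, 18 without array 4 and 20 without set2Δ array 4. Over the 5 outermost genes of each end, 15 of 90 were higher and 2 lower, with a median difference of 0.46. The counts were 3 higher and 4 lower of 119 at places 6 to 10, 2 and 5 of 112 at places 11 to 15, 1 and 2 of 123 at places 16 to 20, and 8 and 61 of 4069 further in, with medians of 0.11, -0.06, -0.02 and -0.02. On the 7 ends that hold one of the 8 genes, 4 of 74 others were higher and 0 lower, and on the ends that hold none, 16 of 247 were higher and 11 lower. Whether the ends differ was not tested. The 20 higher genes included COS10, COS1, COS2 and COS4, of the family whose spots can share signal. The counts at the ends may therefore not all be of separate genes.

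The genes of the pathway were looked at as a list of 15 Sir and telomere genes, of which 10 were tested. In the difference between the mutants 0 passed in either direction in limma, with 0 higher and 1 lower at an unadjusted p under 0.05. Among those that passed against wild type, SAS4, a subunit of the SAS histone acetyltransferase, was higher in both mutants, at 0.75 ± 0.11 in set2Δsir4Δ and 0.80 ± 0.11 in set2Δ. SIR2 (-0.47 ± 0.10) and SAS5 (-0.52 ± 0.09), another subunit of that enzyme, were lower in set2Δsir4Δ, and the Ku subunit gene YKU80 (-0.31 ± 0.10) was lower in set2Δ. The background of these calls is the 11.0% and 14.1% in set2Δsir4Δ and the 11.8% and 13.0% in set2Δ given above. Of 7 genes of the Set2 pathway, SET2 itself included, 4 were tested (EAF3, RPD3, UME1 and CTK1). In limma 0 of these passed in the difference or against wild type in either mutant, also at an unadjusted p under 0.05.

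YPS6 belongs to a family of 7 aspartic proteases, of which 4 were tested. YPS5, YPS7 and MKC7 had no value on the set2Δ arrays, so their difference could not be computed. YPS5, the 5th gene of VII left, read 1.35, 0.72 and 1.21 on set2Δsir4Δ arrays 1, 2 and 4. YPS7 read 0.62 and -0.37 on set2Δsir4Δ arrays 1 and 2, and MKC7 averaged 0.08 in that group. In limma YPS1 and YPS3 did not pass. YPS1 had a difference of -0.35 ± 0.14 (adjusted p = 0.269 in limma) and YPS3 of 0.45 ± 0.33 (0.555). The YPS3 value averages opposite signs, with a gap of 1.425 in Cy3 and -0.522 in Cy5. Its dye term differed between the groups (adjusted p = 0.00616 in limma). BAR1, the secreted protease with which a cells degrade alpha-factor, fell in set2Δsir4Δ. It read -5.96, -5.39, -5.93 and -5.76 on the set2Δsir4Δ arrays, where its mean was -5.76 ± 0.10. In set2Δ the mean was -0.11 ± 0.10 (adjusted p of the difference 3.95e-09 in limma). Whether this fall bears on the SIR4 label or on the mating type of the strains was not tested.

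The genes whose profile over the 8 arrays was most like the mean of the 8 genes were found by Pearson's r over genes with all values, as a description that rests mostly on the gap between both groups. The 5 highest were YLR108C (r = 0.974), the permease family gene VBA5 (0.973), the seripauperin genes PAU18 (0.967) and PAU2 (0.932), and the putative aryl-alcohol dehydrogenase gene AAD15 (0.932). VBA5 was the 2nd gene of XI right, PAU18 the 4th of XII left and AAD15 the 2nd of XV left, while PAU2 was the 30th of V left and YLR108C, at place 168, was far from an end. Their differences between the mutants were smaller than those of the 8 genes, at 0.82 ± 0.12 for YLR108C, 0.61 ± 0.11 for VBA5, 0.45 ± 0.11 for PAU18, 0.60 ± 0.12 for PAU2 and 1.0 ± 0.15 for AAD15. Among the 5 of the 8 genes with all values, AIF1 (0.99), RDS1 (0.989) and YPS6 (0.961) followed the common profile most closely, and YAR068W (0.882) and YHR214W (0.875) least. Each of them is part of that mean and was chosen for the gap, so a high r was given in advance. Their r values cannot be set beside those of the other genes. The per-array median of the 8 genes was 1.13, 1.14, 0.92 and 0.78 on set2Δsir4Δ arrays 1 to 4, against -0.70, -0.72, -0.72 and -0.49 on set2Δ arrays 1 to 4.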

How the data were processed

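Polyadenylated RNA of the mutants and of wild type was hybridised to 2-colour whole-genome ORF arrays, per the labels. The deposited values are log2 ratios, already normalized by the authors in a way not given in the sources used here; the spacing of the values shows base 2 and mutant over wild type on all arrays, since 100% of gaps were whole steps (tolerance 0.02) when read as log2 of Cy5 over Cy3, against at most 6.24% otherwise. No further normalization was applied, and no array pair held identical values. RefSeq (R64) names and gene order matched 5856 ORFs, and 411 had no match.

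ORFs with at least 3 of 4 values in each group (4554) were fitted with limma 3.58.1 in R 4.3.3 (lmFit and eBayes, group means and a common dye term, 5 residual and 5.48 prior degrees of freedom), with Benjamini-Hochberg adjustment over all 4554 and a limit of 0.05. The fit was tested on data simulated with the same spread for every gene. It recovered 98.9% of 2-fold differences, 60.3% of 1.5-fold and 9.1% of 1.25-fold, with 4.19% of calls false. Differences near 1.5-fold can therefore be missed. Wild type is present only as the other channel, and its own spread is left out of the tests. The members and all gene lists were chosen with earlier results of these data known. Named were the members, the nearest tested gene on either side, other neighbours within 5 genes that passed, SET2, SIR4, pathway and yapsin genes, the 5 largest differences among the 15 outermost genes, the 5 most alike profiles, and others where stated. Copies were named from background knowledge, since protein identities were not computed. Spot intensities were not used here.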

Additional observations from a re-analysis of the deposited data

Results flagged for a closer look

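On the set2Δsir4Δ arrays, 1 array stood apart from the rest for YPS6, where array 3 read 0.81, and for YEL073C, where array 4 read 0.62. Both genes stayed above wild type on these arrays. Among the neighbours the same held for YHR213W, at 0.06 on set2Δsir4Δ array 4 and -0.37 on set2Δ array 2, and for AAD3, at 0.60 on set2Δ array 2. These came from 89 sets of 4 values of the named genes, and chance alone sets about 1 in 20 apart.

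For 5 of the 8 genes each set2Δsir4Δ array was above wild type and each set2Δ array below it: AIF1 (difference 1.77), YIR042C (1.88), YPS6 (1.65), RDS1 (1.68) and YEL073C (1.45). Their difference was not tested, since it chose the genes, and 0.483% of all genes had this pattern. GIT1 had it too, with a difference of 2.14 that passed in limma.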

How the results depend on the processing

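The median difference of the 8 genes kept its direction in every alternative run, at 1.49 to 1.59 with each array left out. Single differences moved in 11 of 154 cases, by the largest amounts under quantile normalization (AIF1 2.54, YIL175W 2.67 and YIR042C 2.34), and none reversed. These same arrays chose the genes for that direction, so its persistence is a description and no support. The 8 calls in the mean of both mutants became 5 of the 5 tested in complete genes alone, 5 of 8 with a replicate block, 4 of the 6 tested in Cy3 arrays alone and 5 to 8 with each array left out. Same-numbered arrays of both groups did not all deviate together (correlations 0.227, -0.164, 0.153 and -0.214, positive where both arrays had the same dye orientation, and -0.392, 0.493, -0.669 and 0.27 with dye removed), so the numbers were not taken as pairs. With the block, YIR042C (adjusted p = 0.211 in limma), YPS6 (0.0648) and YEL073C (0.0971) lost their call, and among the neighbours COS10 (0.0833) and YIR043C (0.0649). The dye count of 0 became 1 in centred and scaled arrays, quantile-normalized arrays, a dye term per group, array weights and complete genes. It was 0 with each array left out. The 2 neighbour calls became 7 (centred and scaled), 5 (quantile), 1 (no dye term), 12 (dye term per group), 7 (array weights), 1 of 27 (complete genes), 0 (replicate block, with 16 higher and 2 lower at an unadjusted p under 0.05 in limma), 11 of 33 (Cy3 arrays alone), 4 of 60 (8 genes on either side) and 1 to 5 with each array left out. The 31 calls at chromosome ends became 62 (dye term per group), 11 (replicate block, 4 higher and 7 lower), 66 of 284 (Cy3 arrays alone) and 15 to 39 with each array left out. With the block the calls over all genes were 15 higher and 46 lower, against 38 and 74, and in centred and scaled arrays 79 and 103. The causes were not tested. With 4 arrays a group, no intensities and no wild-type sample, small differences and dim spots were beyond reach.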
